A study of Mus musculus with 15 samples.

Results

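The interleukin 1 family cytokines Il1a, Il1b, Il1rn, Il1f9, Il33 and Il18 were followed across the 5 groups of a study of oncogene-transformed mouse prostate epithelial cells. All 6 genes were chosen by name, with earlier results of these data known. Each was read by 1 probe set assigned to it alone, among 19938 genes measured in this way. RNA was measured on 15 arrays, 3 in each group. The 4 oncogene groups held lines of ventral prostate epithelium of FVB mice transduced with an oncogene: c-myc (the arrays labelled Myc), neuT (an activated form of the receptor Erbb2), ha-ras (Ras) or v-src (Src). The fifth, the control, held primary cultures of the same epithelium and strain without a transduced gene. The transformed lines were grown in DMEM with 10% serum, while the controls stayed in primary culture medium until the night before harvest, so medium is part of each comparison with control and of none among the oncogene groups. All cells were collected at 85 to 90% confluence. The study's design text speaks of 3 lines for each oncogene, and no label says whether the arrays of a group came from separate animals or transductions, so the p-values speak only of how far these samples vary, and that variation may be technical.

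Interleukin 1 cytokines are alarm signals of barrier epithelia and of myeloid cells. Il1a and Il1b encode the agonists interleukin 1 alpha and beta, which bind the same receptor, and Il1rn encodes the antagonist that occupies this receptor without activating it. Il1f9, also written Il36g, encodes interleukin 36 gamma, a cytokine of stratified epithelia with a receptor of its own. Interleukin 33 and interleukin 1 alpha can both reside in the nucleus and are released when cells are damaged, whereas interleukin 1 beta and interleukin 18 are made as precursors that inflammasome caspases cut. Receptors of the family signal through Myd88 and Irak kinases to NF-kB.

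The promoters of Il1a and Il1b are shown because these genes are next to each other among the measured protein-coding genes of chromosome 2 while their levels differed in pattern, and that of Il1f9 because it varied most after Il1a. RefSeq windows (build GRCm38.p6) were found for 6 of 6 members, and the 250 bases before the annotated start are printed 5′ to 3′, with matches to TATAAA and to the AP-1 motif TGANTCA in capitals. The Il1a window lies at chr2:129309973-129310222 on the minus strand, the Il1b window at chr2:129371140-129371389 on the minus strand, and the Il1f9 window at chr2:24186226-24186475 on the plus strand.
Il1a: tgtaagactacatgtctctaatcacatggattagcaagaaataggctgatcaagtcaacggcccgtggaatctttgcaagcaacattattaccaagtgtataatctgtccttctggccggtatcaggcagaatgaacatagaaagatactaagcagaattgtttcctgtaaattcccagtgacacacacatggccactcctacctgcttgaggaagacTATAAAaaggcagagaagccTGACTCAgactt
Il1b: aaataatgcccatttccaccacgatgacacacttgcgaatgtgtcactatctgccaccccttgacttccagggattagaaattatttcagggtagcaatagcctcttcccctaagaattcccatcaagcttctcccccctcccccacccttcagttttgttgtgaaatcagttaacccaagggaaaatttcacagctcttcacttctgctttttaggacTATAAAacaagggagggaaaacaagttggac
Il1f9: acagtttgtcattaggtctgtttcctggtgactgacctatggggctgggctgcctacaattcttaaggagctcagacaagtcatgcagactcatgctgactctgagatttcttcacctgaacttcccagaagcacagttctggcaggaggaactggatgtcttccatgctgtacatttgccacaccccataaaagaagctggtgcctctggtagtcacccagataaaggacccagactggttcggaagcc
Both strands were searched over 300 bases, of which the last 50 follow the start, and no 2 matches overlapped. Il1a had TATAAA at positions -32 to -27 relative to its start and TGACTCA at -12 to -6. Il1b had TATAAA at -31 to -26 and no match to the AP-1 motif. The Il1f9 window held neither. TATAAA occurred in 13.6% of 32817 such windows of all genes and TGANTCA in 7.81%, and the NF-kB consensus, present in 4.5%, had no match in any window of the 6 members. Of the members not printed, Il1rn held TGAGTCA in 1 of its windows, at -141 to -135. Il33 held TATAAA at -29 to -24 in 1 window and at -203 to -198 in another. On the opposite strand, TATAAA lay at -175 to -170 in Il18 and at 14 to 19 in 1 window of Il1rn. These matches describe letters only.

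Array medians lay between 6.19 and 6.32 on the log2 scale, and the median of all gene values was 6.47; background was not measured, so levels under 6.47 may lie near it, which leaves the size of a fold change unsure where either group lies there. Of the transduced genes, Erbb2 was higher in NeuT than in control (log2 fold change 1.70, adjusted p = 4.27e-07). The Myc probe set averaged 8.78 ± 0.17 in the arrays labelled Myc and 9.70 ± 0.29 in control (SD, n = 3 each, log2 fold change -0.92, limma adjusted p = 0.00207). Its direction went against that label, and whether the probe set reads the transduced gene is not known. Directions for this group rest on the label alone. Src was at 7.08 in Src and 7.04 in control (adjusted p = 0.743), and Hras was not analysed here. The Src and Ras labels thus had no backing from these levels either. Control array 3 carried kidney tubule and endothelial transcripts, with Kap at 12.10 against a mean of 4.80 in control arrays 1 and 2 and Emcn at 8.67 against 4.04 and 4.19, and for the 6 family members it differed from that mean by -0.63 (Il1a) to 0.01 (Il1f9). Without it the number of members called against control was 5, 4, 3 and 3 for the arrays labelled Myc, NeuT, Ras and Src, as with it. The epithelial markers Epcam, Cdh1, Krt8 and Krt18 averaged 10.80 to 10.87 in the arrays labelled Myc, 11.16 to 11.27 in NeuT, 5.80 to 6.97 in Ras, 10.19 to 10.29 in Src and 11.27 to 11.61 in control. In Ras, Epcam and Cdh1 averaged 4.44 and 5.91, so the epithelial label was not borne out there by these markers. The keratins were less clear in Ras, with Krt8 at a mean of 7.59 (12.9 in control) and Krt18 at 9.83, 6.58 and 5.80.

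Among the 6 members, 5 differed among the 4 oncogene groups (limma F test across all genes, adjusted p from 1.42e-11 for Il1a to 0.000201 for Il18), where 42.1% of all genes passed, and Il1b did not (adjusted p = 0.78). A gene was called at an adjusted p under 0.05. Against control, 3 members rose and 2 fell in the arrays labelled Myc, where 15.9% of all genes rose and 12.7% fell (28.6% in either direction). In NeuT 1 rose and 3 fell, where 15.2% and 11.6% of all genes did (26.8%). In Ras 1 rose and 2 fell, where 13.3% and 14.2% did (27.4%), and in Src 3 rose and 0 fell, where 14.2% and 12.2% did (26.4%). Of the 2 members below control in mean in Src, Il1b and Il18, 0 fell at an unadjusted p under 0.05 either (limma), while 2 alternatives called Il18 there. The 4 comparisons share the control arrays. Since the members were chosen with earlier results of these data known, these counts cannot be read as an excess over all genes. The median log2 change of the 6 was 0.41, -0.49, -0.38 and 0.77 in the arrays labelled Myc, NeuT, Ras and Src, against 0.03, 0.02, 0.02 and 0.06 over all genes.

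Between oncogene groups, 3 members were higher and 0 lower in the arrays labelled Myc than in NeuT, where 6.99% and 7.95% of all genes were (14.9% in either direction). Against Ras, 3 were higher and 2 lower in the arrays labelled Myc (16.6% and 11.8% of all genes, 28.4% in either direction), and against Src, 1 was higher and 3 lower (11.4% and 7.57%, 18.9%). NeuT had 1 higher and 2 lower than Ras (16.5% and 11.6%, 28.1%) and 0 higher and 4 lower than Src (12.2% and 7.95%, 20.2%). Ras had 0 higher and 3 lower than Src (12.1% and 14.1%, 26.2%).

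**Figure D1:**
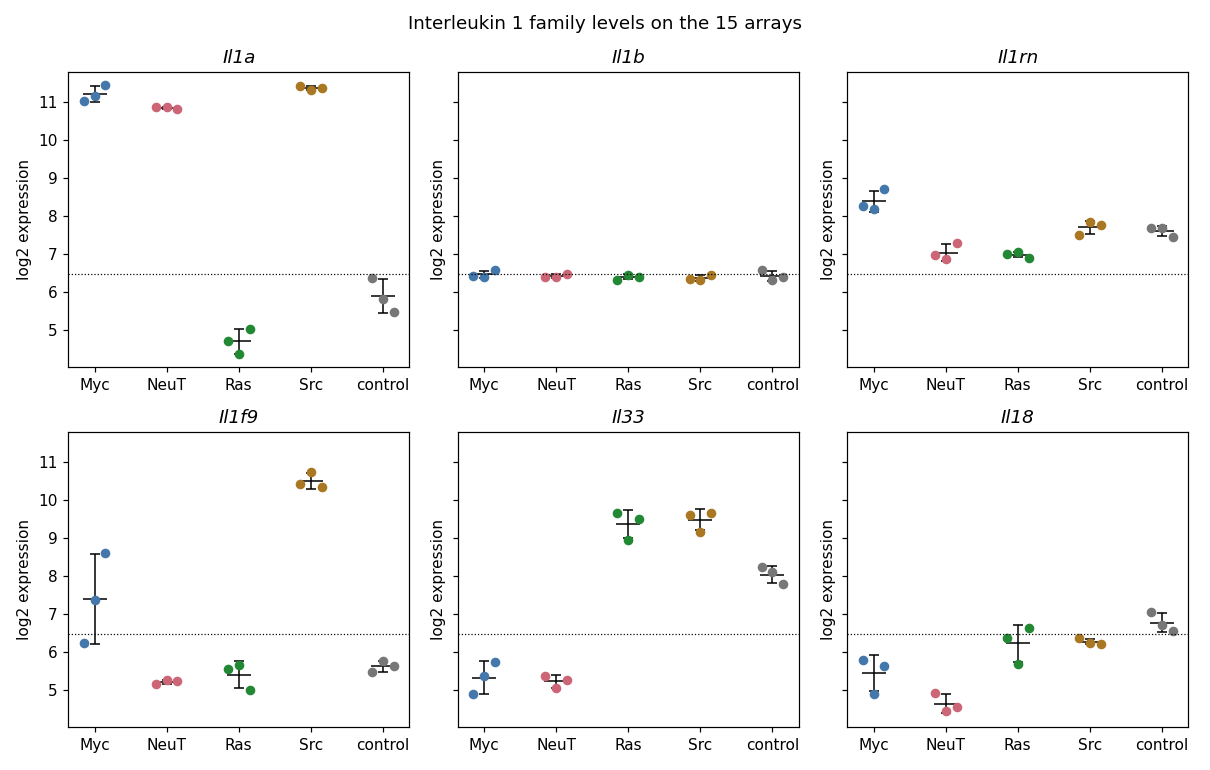
Log2 expression of the 6 family members on each array, with 1 panel a gene and the groups on the horizontal axis (Myc stands for the arrays labelled Myc). Points are arrays, horizontal ticks with bars are the mean ± SD of 3 arrays, and the dotted line is the median of all gene values (6.47). Il1a sits above 10.8 in 3 oncogene groups and at or below 5.03 in Ras, while Il1b stays between 6.31 and 6.57.

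Il1a, the agonist interleukin 1 alpha, was high in 3 of the 4 oncogene groups and lowest in Ras. It was at 11.04, 11.15 and 11.44 in the arrays labelled Myc and at 10.86, 10.86 and 10.81 in NeuT. In Src it was at 11.43, 11.31 and 11.37, and in Ras at 4.69, 4.36 and 5.03. The controls were at 6.37, 5.82 and 5.46, so that no oncogene array overlapped them. The rise was 5.32 ± 0.20 on the log2 scale in the arrays labelled Myc (SE; 40.1-fold, adjusted p = 6.09e-10), 4.96 ± 0.20 in NeuT (31.1-fold, adjusted p = 8.8e-10) and 5.49 ± 0.20 in Src (44.8-fold, adjusted p = 3.62e-10). Since the control level was under 6.47, these folds are unsure in size. Ras was below control (log2 fold change -1.19 ± 0.20, adjusted p = 0.000326), with both sides under that level. Ras was also lower than each other oncogene group, which lay 6.52 (arrays labelled Myc) and 6.15 (NeuT) log2 units above it, while Ras minus Src was -6.68 (adjusted p from 1.45e-11 to 3.46e-11).

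The high Il1a groups lay close together, in the order Src, arrays labelled Myc, NeuT. The arrays labelled Myc differed from NeuT by 0.37 (95% interval -0.06 to 0.79, adjusted p = 0.292, and 0.0402 with the other groups left out of the fit) and from Src by -0.16 (-0.58 to 0.26, adjusted p = 0.652). NeuT minus Src was -0.53 without overlap of the arrays, and the adjusted p of 0.0773 did not pass. That difference passed under 5 of 24 alternatives (adjusted p from 0.000417 to 0.175 over all 24), leaving out control array 1 or 3 among them (0.0263 and 0.025). As these are bulk samples, a smaller share of expressing cells and less RNA per cell cannot be told apart.

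Il1b, the agonist interleukin 1 beta, passed in no comparison, where its neighbour Il1a moved by several log2 units. Its 15 arrays spanned 6.31 to 6.57, with group means of 6.45 in the arrays labelled Myc, 6.41 in NeuT, 6.39 in Ras, 6.36 in Src and 6.42 in control. Over the 10 comparisons the adjusted p ran from 0.486 to 0.941. Against control the widest 95% interval limits over the 4 groups were -0.24 and 0.21 (log2). All group means were under 6.47, so the probe set may have read near background and a lack of change there is not shown. The next measured gene on the other side of Il1a, the mitotic gene Ckap2l, had means of 8.27, 8.37, 7.64, 7.90 and 6.62 in the arrays labelled Myc, NeuT, Ras, Src and control.

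Il1rn, which encodes the receptor antagonist, was highest in the arrays labelled Myc and moved far less than Il1a. It was at 8.25, 8.19 and 8.70 in the arrays labelled Myc, against 7.68, 7.67 and 7.44 in control (log2 fold change 0.78 ± 0.14, adjusted p = 0.000721). It fell in NeuT, at 6.96, 6.85 and 7.28 (log2 fold change -0.57 ± 0.14, adjusted p = 0.00794), and in Ras, at 6.98, 7.03 and 6.90 (-0.63 ± 0.14, adjusted p = 0.0039). In these 3 groups no array overlapped the controls. Src was at 7.50, 7.83 and 7.75, overlapped the controls and did not pass (log2 fold change 0.09, 95% interval -0.21 to 0.40, adjusted p = 0.658). In NeuT, then, the agonist Il1a rose while the antagonist Il1rn fell, and in the arrays labelled Myc both rose. The order of levels was arrays labelled Myc, Src, control, NeuT, Ras, in which NeuT and Ras did not separate (log2 difference 0.06, 95% interval -0.25 to 0.37) and the arrays labelled Myc exceeded Src by 0.69 ± 0.14 (adjusted p = 0.00342).

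Il1f9, interleukin 36 gamma, was highest in Src and uneven in the arrays labelled Myc. It was at 10.44, 10.74 and 10.34 in Src, against 5.46, 5.76 and 5.62 in control (log2 fold change 4.89 ± 0.40, 29.6-fold, adjusted p = 8.78e-07). The arrays labelled Myc were at 6.24, 7.36 and 8.61, all above the controls and far from each other. Their rise of 1.79 ± 0.40 passed in the fit of all groups (adjusted p = 0.00325) and missed when these arrays were fitted with the controls alone (adjusted p = 0.0555, range over 24 alternatives 5.64e-05 to 0.0555). Without array 3 of the arrays labelled Myc the log2 fold change was 1.18 (adjusted p = 0.00487). NeuT was at 5.14, 5.25 and 5.24 and Ras at 5.55, 5.64 and 4.99. Neither passed against control (log2 fold change -0.41, 95% interval -1.26 to 0.45, in NeuT, and -0.22, interval -1.08 to 0.64, in Ras). NeuT passed when it was fitted with the controls alone (adjusted p = 0.021, range 0.021 to 0.687), and all levels there were under 6.47. Src exceeded the arrays labelled Myc (their level minus that of Src was -3.10 ± 0.40, adjusted p = 7.84e-05), which in turn exceeded NeuT by 2.19 ± 0.40 (adjusted p = 0.00168) and Ras by 2.01 ± 0.40 (adjusted p = 0.00144). The basal epithelial markers Krt5, Krt14, Krt15 and Trp63 also differed between groups. They averaged 8.06 to 8.13 in the arrays labelled Myc, 6.50 to 6.61 in NeuT, 5.79 to 6.02 in Ras, 10.18 to 10.53 in Src and 9.88 to 10.37 in control. Against control 2 of the 4 rose and 1 fell in Src, and 4 of 4 fell in each other oncogene group. Trp63 rose to 9.58 in Src from 7.85 in control, while Krt15 fell to 7.79 from 10.20. Of all genes, 14.2% rose and 12.2% fell in Src, and 11.6 to 14.2% fell in the other oncogene groups. Their part in the Il1f9 levels, and in those of the other members, was not tested.

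Il33, the nuclear alarmin, split the oncogene groups into a high and a low pair. It was at 9.67, 8.94 and 9.51 in Ras and at 9.62, 9.16 and 9.66 in Src, against 8.23, 8.10 and 7.78 in control. The rise was 1.33 ± 0.22 in Ras (2.52-fold, adjusted p = 0.000354) and 1.44 ± 0.22 in Src (2.71-fold, adjusted p = 0.000275). It was at 4.88, 5.36 and 5.72 in the arrays labelled Myc and at 5.36, 5.04 and 5.25 in NeuT, below every control. Their log2 fold changes were -2.72 ± 0.22 (adjusted p = 6.72e-07) and -2.82 ± 0.22 (adjusted p = 4.93e-07), down to levels under 6.47. Ras and Src did not separate (log2 difference -0.11, 95% interval -0.58 to 0.37), nor did the arrays labelled Myc and NeuT (0.10, -0.37 to 0.58), while differences of the low groups minus the high ones ran from -4.26 to -4.05 (adjusted p from 7.13e-09 to 1.31e-08).

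Il18, whose product is cut by caspase 1, was highest in control. It was at 5.77, 4.90 and 5.64 in the arrays labelled Myc and at 4.91, 4.43 and 4.56 in NeuT, against 7.05, 6.71 and 6.56 in control. It thus fell by 1.34 ± 0.24 on the log2 scale (adjusted p = 0.000736) and by 2.14 ± 0.24 (adjusted p = 1.5e-05), with no array overlapping the controls. Ras was at 6.36, 5.69 and 6.63, with 1 array above the lowest control, and Src at 6.36, 6.24 and 6.22. Neither passed (log2 fold change -0.55, adjusted p = 0.121, and -0.50, adjusted p = 0.149). Among the oncogene groups NeuT was lower than Ras (-1.59 ± 0.24, adjusted p = 0.000183) and than Src (-1.64 ± 0.24, adjusted p = 0.00027), while Ras and Src had a log2 difference of -0.05 (95% interval -0.57 to 0.48). The arrays labelled Myc were above NeuT by 0.80 (adjusted p = 0.0403) and below Ras and Src (-0.79 and -0.84, adjusted p = 0.0257 and 0.0274). These last 3 calls were lost under 12, 5 and 6 of 23 alternatives. With 1 array left out, the first was lost without control array 2, array 1 or 3 of those labelled Myc, NeuT array 2 or 3 or any Src array (adjusted p from 0.0506 to 0.175). The second was lost without array 2 of those labelled Myc (-0.52) or Ras array 1 or 3 (0.0832 to 0.128), and the third without array 2 of those labelled Myc or any Src array (0.0619 to 0.123). The difference between Ras and control passed without Ras array 3 (-0.75, adjusted p = 0.0462, range over 23 alternatives 0.0442 to 0.429). That between Src and control passed with array weights (-0.59, adjusted p = 0.0286) and with Src and the controls alone (0.0352, range over 23 alternatives 0.0286 to 0.356). All oncogene means were under 6.47.

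**Figure D2:**
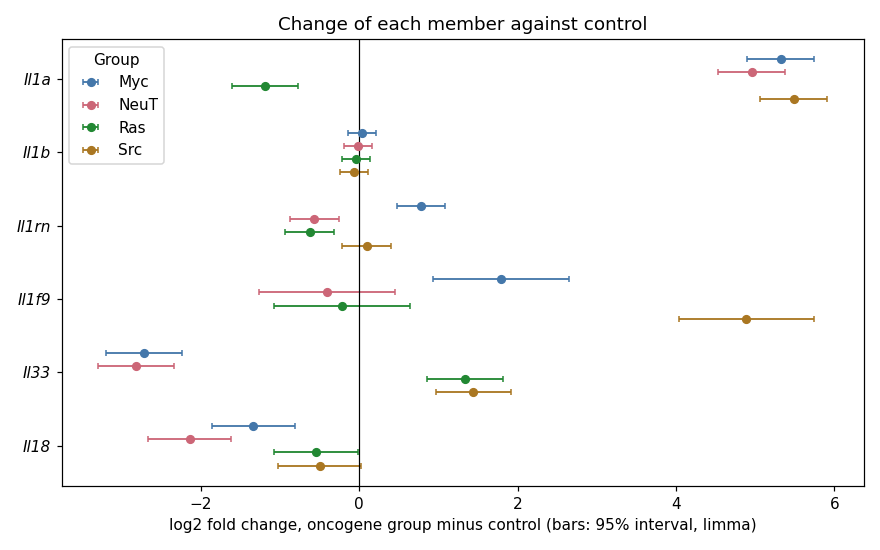
Log2 fold change of each family member, oncogene group minus control, with 1 row a gene, colours for the oncogene groups (Myc stands for the arrays labelled Myc) and bars for the 95% interval from limma, n = 3 arrays a group. Il1a lies near 5 in the arrays labelled Myc, NeuT and Src and at -1.19 in Ras, and Il33 lies above 0 in Ras and Src and below 0 in the other oncogene groups.

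The members thus combined differently in each oncogene group. Src was the group in which Il1a, Il1f9 and Il33 were all above control. In the arrays labelled Myc, Il1a, Il1rn and Il1f9 rose while Il33 and Il18 fell. NeuT had Il1a as the sole member above control, and Il1rn, Il33 and Il18 below it. Ras had Il33 as the sole member above control, with Il1a and Il1rn below it. Within the arrays labelled Myc, array 3 had the highest value of Il1a, Il1b, Il1rn, Il1f9 and Il33, and array 1 that of Il18.

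The genes whose profile over the 15 arrays came nearest to each member, by the root mean square difference of mean-centred log2 values, were named for the 5 members whose group means ranged over at least 1 log2 unit. For Il1f9 these were S100a9 (0.62), Sprr2d (0.74) and S100a8 (0.82), against a spread of Il1f9 itself of 2.05. S100a8 and S100a9 encode the subunits of calprotectin, a calcium-binding protein of neutrophils and of stressed keratinocytes, and Sprr2d a protein of the cornified envelope. S100a9 was at 6.37, 7.0 and 7.98 in the arrays labelled Myc, 10.22, 9.68 and 10.28 in Src, and 6.64, 6.60 and 6.61 in control. S100a8 was at 6.51, 7.10 and 8.51 in the arrays labelled Myc, 8.64, 8.64 and 8.63 in Src, and 5.54, 5.77 and 5.49 in control. In both, as in Il1f9, array 3 was the highest of the arrays labelled Myc and array 1 the lowest. Both genes were chosen for likeness over these same arrays, so the shared order is no separate result. Since S100a8 is also a myeloid marker, the list of 11 leukocyte markers was read beside it. S100a8 was the 1 of these that passed the test in Src, where 14.2% of all genes rose and 12.2% fell. By mean, 5 of the 11 lay above control in Src and 6 below it. This split leans on control array 3, in which Csf1r was at 6.41, against 5.74 and 5.67 in control arrays 1 and 2. The median log2 change of the 11 in Src was -0.08, and 0.07 without that array. The Fc receptor gene Fcgr1 was at 6.31, 6.09 and 6.10 in Src, against 5.92, 5.97 and 5.88 in control, without overlap. Itgax averaged 5.53 in Src and 5.36 in control, and Itgam 5.08 in Src and 5.0 in control. The pan-leukocyte gene Ptprc averaged 4.80 in Src and 4.96 in control, and the macrophage gene Adgre1 4.51 and 4.59. The 11 markers averaged 5.90 to 6.16 in the arrays labelled Myc, 5.74 to 5.89 in NeuT, 5.68 to 5.84 in Ras, 6.11 to 6.19 in Src and 5.85 to 6.01 in control. Their part in the Il1f9 level of Src was not tested.

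Nearest to Il33 were Casp4 (0.41), Pdpn (0.64) and Casp12 (0.69), against a spread of Il33 of 1.90. Casp4 encodes the inflammatory caspase that senses cytosolic lipopolysaccharide, Pdpn the membrane glycoprotein podoplanin, and Casp12 a caspase of the same gene cluster as Casp4. Pdpn was at 11.35, 11.18 and 11.30 in Ras and 10.89, 10.89 and 10.95 in Src, against 9.69, 9.61 and 9.31 in control. Its means were 5.74 in NeuT and 5.88 in the arrays labelled Myc. Il33 is also known from fibroblasts and endothelium. Of all genes, 13.3% rose and 14.2% fell in Ras against control, and 14.2% rose and 12.2% fell in Src. Of 7 fibroblast markers, 2 rose in Ras against control, Dcn to 8.17 against 7.04 and Col3a1 to 6.81 against 6.27, and 1 fell. Without control array 3, 2 rose and 0 fell there. In Src 0 rose and 1, Dcn, fell (5.22 against 7.04). Of 8 endothelial markers, 1 (Eng, 6.90 against 6.45) rose in Ras and 0 in Src; without control array 3, 2 rose in Ras and 1 in Src. The fibroblast markers averaged 6.39 to 6.72 in Ras, 6.07 to 6.14 in Src and 6.27 to 6.42 in control, the endothelial ones 5.60 to 5.67, 5.53 to 5.54 and 5.47 to 6.83. Their part in the Il33 level of Ras was not tested.

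**Figure D3:**
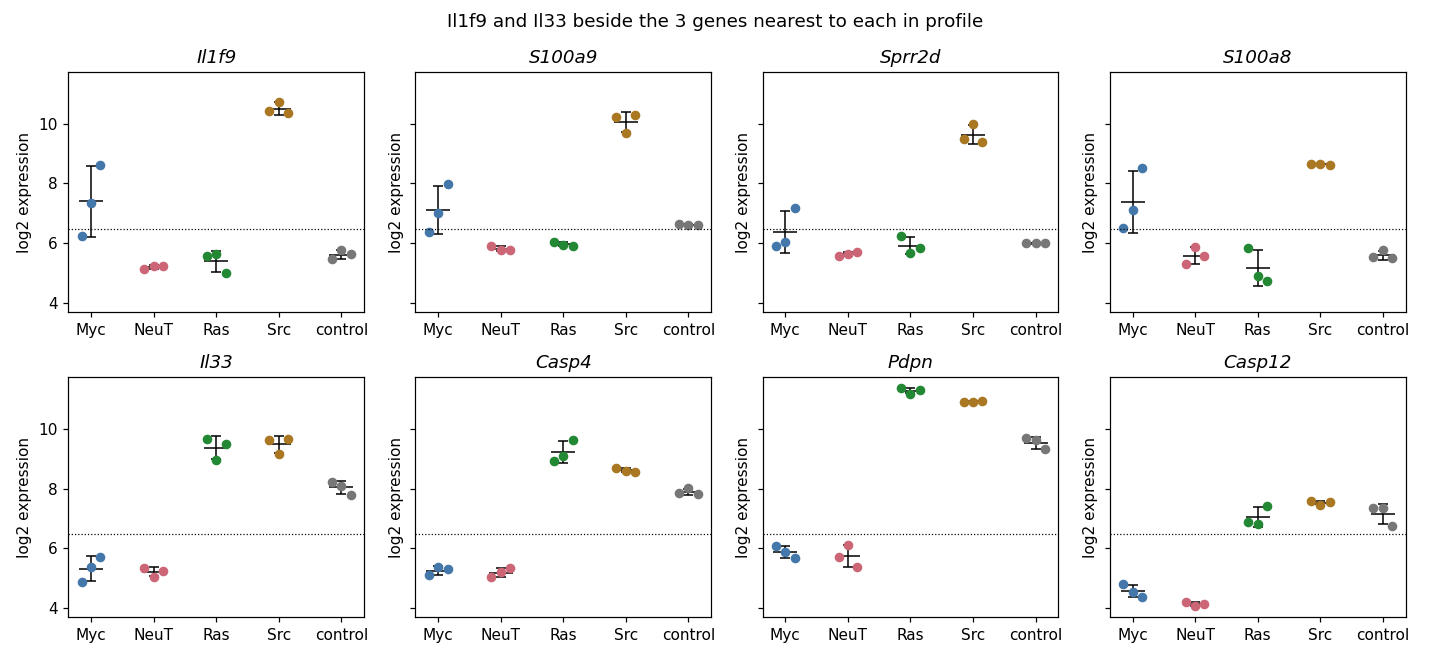
Log2 expression on each array of Il1f9 (top row) and Il33 (bottom row) beside the 3 genes nearest to each in profile, by group (Myc stands for the arrays labelled Myc). Points are arrays, ticks with bars the mean ± SD of 3 arrays, and the dotted line the median of all gene values. The top row is highest in Src, with spread-out arrays labelled Myc, and the bottom row is high in Ras, Src and control.

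For Il1a the nearest genes lay farther off. Tnfrsf26, a member of the TNF receptor family, had a difference of 1.02, the carboxypeptidase Cpa4 of 1.52 and the growth factor binding protein Igfbp3 of 1.67, against a spread of Il1a of 2.90. Tnfrsf26 was at means of 10.35 in the arrays labelled Myc, 9.61 in NeuT, 5.96 in Ras, 10.53 in Src and 6.37 in control. Its groups had the same order as those of Il1a, for likeness to which it was chosen. Igfbp3 shared the low level in Ras (5.71) but was already at 9.21 in control. Nt5dc2 (0.26), Ccdc116 (0.27) and Zfp72 (0.27) were nearest to Il1rn, and Amn1 (0.35), Vwa5a (0.38) and Zfp229 (0.39) to Il18, against spreads of 0.53 and 0.80. This likeness is a description of 15 arrays that fall into 5 groups.

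Of the other ligands of the family, Il1f6 (interleukin 36 alpha) rose in the arrays labelled Myc, to 5.53 ± 0.40 against 4.76 ± 0.14 in control (SD, n = 3 each; log2 fold change 0.77 ± 0.17, adjusted p = 0.00272). It was at 4.85 in NeuT, 5.01 in Ras and 5.20 in Src. Il1f5, the interleukin 36 receptor antagonist, Il1f8 (interleukin 36 beta) and Il1f10 had group means of 5.30 to 5.53, 3.82 to 4.03 and 4.62 to 4.71, and 0 of the 3 passed in any comparison with control. All these levels were under 6.47.

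For the counts in the pathway lists, the background was the 13.3 to 15.9% of all genes that rose and the 11.6 to 14.2% that fell against control. Il18r1, the binding chain of the interleukin 18 receptor, was lower than control in every oncogene group. It was at 9.0, 8.96 and 8.98 in the arrays labelled Myc, 7.58, 6.40 and 6.71 in NeuT, 4.99, 5.14 and 5.43 in Ras and 7.83, 8.0 and 7.88 in Src, against 10.83, 10.88 and 10.37 in control. The log2 fold changes were -1.71 ± 0.23, -3.79 ± 0.23, -5.51 ± 0.23 and -2.79 ± 0.23 (adjusted p from 3.94e-10 in Ras to 5.24e-05 in the arrays labelled Myc), and the 4 groups also differed from each other in each pair. Its partner Il18rap fell in the arrays labelled Myc, NeuT and Src (log2 fold changes -0.97, -1.0 and -1.01, adjusted p = 0.00301, 0.00265 and 0.00298) and was at -0.17 in Ras (adjusted p = 0.601). Il1rap, the accessory chain shared by the receptors for interleukins 1, 33 and 36, rose in each group, by 0.48 ± 0.11, 0.43 ± 0.11, 0.95 ± 0.11 and 0.92 ± 0.11 in the arrays labelled Myc, NeuT, Ras and Src (adjusted p from 8.83e-06 to 0.00689).

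Il1rl2, the receptor chain for interleukin 36, rose in Ras, to 6.74 ± 0.59 against 5.76 ± 0.21 in control (log2 fold change 0.98 ± 0.22, adjusted p = 0.00315). It fell in Src, where its ligand Il1f9 was highest, to 4.46 ± 0.09 (log2 fold change -1.29 ± 0.22, adjusted p = 0.000526), as well as in the arrays labelled Myc and NeuT (-1.60 and -1.56, adjusted p = 5.78e-05 and 8.06e-05). The decoy receptor Il1r2 was at 4.86 to 4.94 in all groups, and neither it, the soluble inhibitor Il18bp nor the inhibitory receptor Sigirr passed against control. Of 7 receptors and soluble inhibitors measured, 1 rose and 3 fell in NeuT, Src and the arrays labelled Myc, and 2 rose and 1 fell in Ras; the list's log2 medians were -0.17, -0.14, -0.38 and -0.04 in the arrays labelled Myc, NeuT, Src and Ras, against 0.03, 0.02, 0.06 and 0.02 over all genes. Without control array 3 the median was -0.15 in Src, and 2 rose in NeuT. Il1r1 and Il1rl1 were not analysed here.

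Of 12 genes of receptor-proximal signalling, 2 rose in each group, and 2, 1, 2 and 1 fell in the arrays labelled Myc, NeuT, Ras and Src. Irak3, the inhibitory kinase-like member of the Irak family, rose in Ras, to 9.30 ± 0.21 against 5.80 ± 0.09 in control (log2 fold change 3.50 ± 0.12, adjusted p = 6.35e-11), and was at 5.78 to 5.99 in the other oncogene groups. The adaptor Myd88 rose by 0.67 in Src, 0.40 in NeuT and 0.65 in the arrays labelled Myc (adjusted p = 0.0014, 0.0322 and 0.00124). The ubiquitin ligase Peli1 fell in the arrays labelled Myc, NeuT and Ras (-0.83, -0.55 and -0.51, adjusted p = 0.000451, 0.00975 and 0.0147), and Tab3, a subunit of the Tak1 kinase complex, fell in Ras (-0.47, adjusted p = 0.0119). Of 6 NF-kB subunits and kinases, 1, 2, 1 and 2 rose and 0, 0, 2 and 1 fell in the arrays labelled Myc, NeuT, Ras and Src. Rela fell in Ras (-0.72 ± 0.13, adjusted p = 0.000486) and Src (-0.40 ± 0.13, adjusted p = 0.0282), Rel rose in both (0.57 and 0.50, adjusted p = 0.00157 and 0.00514) and Nfkb2 rose in NeuT (0.59 ± 0.10, adjusted p = 0.000622). The kinase Ikbkb rose in NeuT (0.28) and the arrays labelled Myc (0.30) and fell in Ras (-0.29), with adjusted p from 0.0236 to 0.0348. Median changes of the signalling list were -0.04, 0.15, -0.07 and -0.0005 and those of the NF-kB list 0.02, 0.20, 0.03 and 0.0041 (log2), in the same order of groups. Without control array 3, 1, 1, 2 and 2 signalling genes rose and 2, 2, 3 and 3 fell, at medians of -0.07, 0.09, -0.12 and -0.01. For the NF-kB list 0, 1, 1 and 2 then rose and 1, 0, 2 and 1 fell, so that the Ikbkb call in the arrays labelled Myc was lost, at medians of -0.11, 0.08, -0.05 and -0.07.

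Among genes that process and release the cytokines, Casp4 and Gsdmd were above control in Ras and Src. Casp4 was at 8.92, 9.11 and 9.63 in Ras and 8.69, 8.58 and 8.56 in Src, against 7.86, 8.02 and 7.81 in control (log2 fold changes 1.32 ± 0.15 and 0.72 ± 0.15, adjusted p = 9.12e-06 and 0.00251). It fell in NeuT (-2.70 ± 0.15) and the arrays labelled Myc (-2.64 ± 0.15, adjusted p = 1.38e-08 and 1.78e-08). Gsdmd, the pore-forming protein gasdermin D, rose in Ras (2.28 ± 0.18, adjusted p = 2.48e-07) and Src (1.31 ± 0.18, adjusted p = 8.49e-05) and had log2 fold changes of -0.35 and -0.29 in the arrays labelled Myc and NeuT (adjusted p = 0.165 and 0.274). Aim2, a sensor of cytosolic DNA, rose in Ras alone among the 4 groups, to 9.72 ± 0.64 against 6.26 ± 0.19 in control (3.47 ± 0.23, adjusted p = 4.75e-08), and was below control in the other 3 (-0.83 to -1.06, adjusted p from 0.00332 to 0.0131). Aim2 in Ras exceeded each other oncogene group (-4.29 for the arrays labelled Myc minus Ras, -4.46 for NeuT minus Ras and 4.53 for Ras minus Src, adjusted p from 3.24e-09 to 6.32e-09). Capn2, a calpain subunit, a protease family that cuts the interleukin 1 alpha precursor, fell in the arrays labelled Myc (-1.17 ± 0.15) and Src (-0.70 ± 0.15), with adjusted p = 3.38e-05 and 0.00321. In all, 0, 0, 4 and 3 of 12 such genes rose and 5, 3, 1 and 4 fell in the arrays labelled Myc, NeuT, Ras and Src, at medians of -0.22, -0.06, -0.04 and -0.02 (log2). Without control array 3, 4 fell in Ras.

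**Figure D4:**
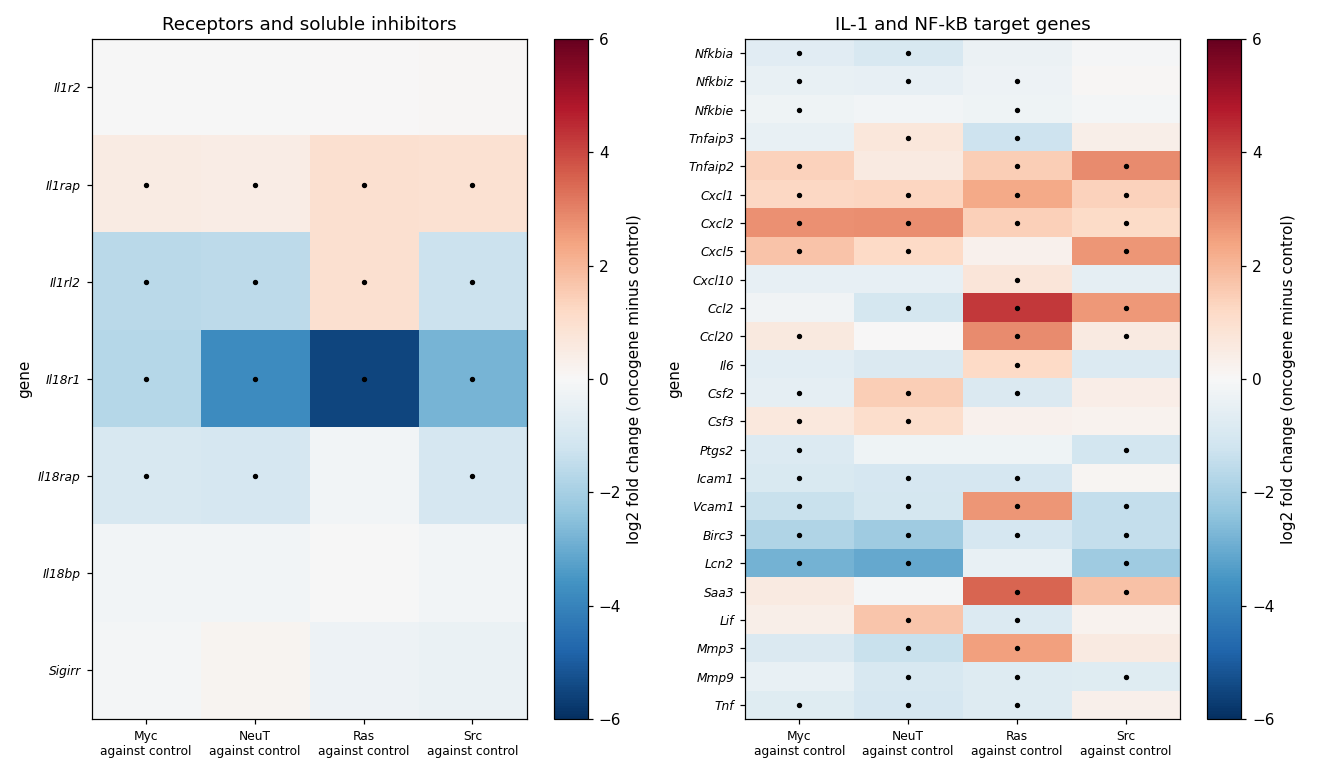
Log2 fold change against control of 7 receptors and soluble inhibitors (left) and 24 genes known as targets of interleukin 1 and NF-kB (right), with 1 row a gene and 1 column an oncogene group (Myc stands for the arrays labelled Myc); colour gives the change and a dot an adjusted p under 0.05. Il18r1 is below control in all 4 columns, and Ccl2, Vcam1, Saa3 and Mmp3 are above control in Ras.

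Genes known as targets of interleukin 1 and NF-kB moved both ways in every group. Of 24, 6, 7, 10 and 7 rose and 10, 10, 9 and 5 fell in the arrays labelled Myc, NeuT, Ras and Src, at medians of -0.46, -0.37, -0.02 and 0.22 (log2); without control array 3, 6, 6, 9 and 6 rose, 12, 11, 11 and 6 fell, and the medians were -0.63, -0.49, -0.12 and 0.07. The monocyte chemokine Ccl2 was highest in Ras, at 12.07, 11.72 and 12.10, against 7.84, 7.77 and 7.51 in control (log2 fold change 4.25 ± 0.15, adjusted p = 6.11e-11). Ccl2 rose in Src too, to 10.31 ± 0.18 (2.61 ± 0.15, adjusted p = 2.97e-08), and fell in NeuT (-1.07 ± 0.15, adjusted p = 8.19e-05). In the arrays labelled Myc it did not pass (-0.20 ± 0.15, limma adjusted p = 0.361). Whether Il1a had a part in the levels of these target genes was not tested. The adhesion molecule Vcam1 rose in Ras (2.65 ± 0.14, adjusted p = 3.4e-09) and fell in the arrays labelled Myc, NeuT and Src (-1.34, -1.07 and -1.41, adjusted p from 4.76e-06 to 3.96e-05). The acute phase gene Saa3 rose in Ras (3.51 ± 0.53, adjusted p = 0.000159), where its arrays spread from 7.78 to 10.99, and in Src (1.75 ± 0.53, adjusted p = 0.0259). The metalloproteinase Mmp3 rose in Ras (2.47 ± 0.46, adjusted p = 0.000944) and fell in NeuT (-1.32 ± 0.46, adjusted p = 0.0488).

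Of the 24, 2 rose in all 4 groups and 1 fell in all 4. The share of all genes that did so was not counted, and the 4 comparisons share the control arrays and the medium difference. These 3 were chosen for naming after their values were seen. The neutrophil chemokine Cxcl1 rose by 1.22, 1.30, 2.29 and 1.37 log2 units, and the related Cxcl2 by 2.73, 2.79, 1.41 and 1.13, in the arrays labelled Myc, NeuT, Ras and Src (adjusted p from 8.28e-08 to 4.21e-05 and from 4.29e-06 to 0.00822). Birc3, an inhibitor of apoptosis induced by NF-kB, was below control in the same order of groups (log2 fold changes -1.78, -2.11, -1.01 and -1.45, adjusted p from 4.29e-07 to 0.00028).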

How the data were processed

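The deposited table holds 1 value per probe set and array. The authors' values were taken as log2 expression, normalized across arrays, from their range (2.13 to 13.46) and near-equal array medians; per the submitters' processing notes, RMA and version 1.1 of Affymetrix Expression Console were used, with background settings, summary level and genome build not given in the sources used here. Per the labels, Trizol RNA was amplified by the WT-Ovation Pico system. Of 35556 probe sets, 21789 had 1 gene, 1621 several and 12146 none, by an annotation that can be old; the brightest single-gene probe set by mean stood for each of 19938 genes. No filter on low values was applied and no array was left out.

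A mean per group was fitted over the 15 arrays in R 4.3.3, with lmFit and eBayes of limma 3.58.1. Contrasts were each oncogene against control, the 6 oncogene pairs and an F test among the oncogenes. P-values are two-sided, Benjamini-Hochberg adjusted over all genes; a call needed an adjusted p below 0.05. Errors are SE for fold changes and SD for levels, and intervals are 95% and unadjusted. Precision is limited by having 3 arrays per group. The fit was also run on simulated data, with independent normal noise and the same spread of a gene in every group. That run held no odd array, unequal group spread or shared replicate effect, so it cannot speak on these.

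The members and lists were chosen with earlier results of these data known. Named genes were all members, other family ligands and receptors, up to 4 genes of each further list by range of group means among those called against control, and the 3 genes nearest to each member in profile, predicted genes passed over. Alternatives were scaling, dim genes, probe set averaging, variance prior, array weights, samples fitted, replicate block, a 2-fold minimum and leaving out arrays. Each member had 1 probe set, so separate tests of probe sets were not needed. Figures were drawn with Python 3.11.15 and matplotlib 3.10.9. Deviations from the group means correlated at a median r of 0.023 in same-numbered arrays of different groups (over 0.1 in 3 of 30 pairs). In pairs of unlike number the median was -0.013 (over 0.1 in 1 of 60). The numbers were not taken as pairs in the main fit, and the replicate block was the alternative to this.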

Additional observations from a re-analysis of the deposited data

Results flagged for a closer look

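Several members moved in opposite directions against control in different oncogene groups, and the difference between those groups passed the test of the pair. For Il1a the log2 differences were 6.52 (arrays labelled Myc minus Ras, adjusted p = 2.31e-11), 6.15 (NeuT minus Ras, adjusted p = 3.46e-11) and -6.68 (Ras minus Src, adjusted p = 1.45e-11). Il1rn had 1.35 (arrays labelled Myc minus NeuT, adjusted p = 2e-05) and 1.41 (arrays labelled Myc minus Ras, adjusted p = 4.24e-06). Il33 had -4.05 and -4.16 (arrays labelled Myc minus Ras and minus Src, adjusted p = 8.77e-09 and 1.31e-08) and -4.15 and -4.26 (NeuT minus Ras and minus Src, adjusted p = 7.13e-09 and 9.45e-09). In each of these pairs no array of one group overlapped the other, which adds little, since the pairs were chosen for passing these tests.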

How the results depend on the processing

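The number of members called moved by over 1.5 times under 1 alternative only, to 2 from 4 for the arrays labelled Myc against Src when a 2-fold minimum was added. With 1 array left out it ranged from 3 to 4 in Ras against control, 2 to 3, 4 to 5 and 3 to 4 in the arrays labelled Myc against NeuT, Ras and Src, and 4 to 5 in NeuT against Src, and did not move in the other comparisons. A 2-fold minimum also lowered the genes called to 1288, 1182, 1412 and 886 of 19938, from 5699, 5339, 5469 and 5263 in the arrays labelled Myc, NeuT, Ras and Src against control, and to 463, 1227, 619, 1191, 709 and 1094 from 2979, 5665, 3777, 5607, 4019 and 5214 in the 6 pairs, and to 2237 from 8386 in the F test. With dim genes left out, 9969 genes were tested, and the share called was 40.6 to 48.8% against control, in place of 26.4 to 28.6%, 30.6 to 49.0% in the pairs, in place of 14.9 to 28.4%, and 69.7% in the F test, in place of 42.1%. Fitting only Ras and control called 3567 genes, and array weights called 4584 in the arrays labelled Myc against NeuT. Il1b and Il18 were not tested when dim genes were left out. The 2-fold minimum took away every call of Il1rn against control (0.78, -0.57 and -0.63 in the arrays labelled Myc, NeuT and Ras). It also took away those against Src (0.69, -0.66 and -0.72 in the same order), and the Il18 calls between the arrays labelled Myc and each other oncogene group. The replicate number as a block added a call for Il18 in Ras against control (-0.55, adjusted p = 0.0442). It changed no other call of a member and left the genes called in Ras against control at 5469. Of the 15 arrays, 10 correlated best, among arrays of other groups, with an array of their own number. Same-numbered pairs were 30 and pairs of unlike number 60, so this was more than an even spread over the pairs would give. Whether the numbers mark a shared origin was not tested. Signs turned for differences near 0 that passed in no setting. Il1b turned with median centring, quantile normalization or array weights, in NeuT (0.037 and 0.04) and Ras (0.045 and 0.039) against control, in the arrays labelled Myc against control (array weights: log2 difference -0.012), in NeuT against Ras (-0.0081) and in Ras against Src (-0.0073), Il1rn in NeuT against Ras to -0.042, Il33 in Ras against Src to 0.015, and Il18 in Ras against Src to 0.027, 0.014 and 0.03. With 1 array left out, Il1b ranged from -0.027 to 0.10, -0.067 to 0.060, -0.091 to 0.037 and -0.12 to 0.007 in the arrays labelled Myc, NeuT, Ras and Src against control, and from -0.014 to 0.077, -0.01 to 0.056 and -0.0026 to 0.070 in the arrays labelled Myc against NeuT, NeuT against Ras and Ras against Src. Il33 ranged from -0.096 to 0.33 in the arrays labelled Myc against NeuT and from -0.27 to 0.11 in Ras against Src, Il1rn from -0.062 to 0.15 in NeuT against Ras, and Il18 from -0.25 to 0.22 in Ras against Src. Without array 3 of Ras, Il18 in Ras against control passed (-0.75, adjusted p = 0.0462), and without control array 1 or 3 Il1a in NeuT against Src did (adjusted p = 0.0263 and 0.025). Causes were not tested.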
